A study of Mus musculus with 24 samples.

Results

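The comparison described here is that of round spermatids from Ago413+/- mice with round spermatids from Ago413+/+ mice, in which small RNA was sequenced in 4 libraries of each genotype, 8 of the 24 libraries of the series. The other libraries hold Ago413-/- round spermatids and pachytene/diplotene spermatocytes of the 3 genotypes. Of the 1978 mature mouse miRNAs in the count table, 405 reached 10 counts or more in 3 or more of the 8 libraries and were tested. They held 99.82 to 99.87% of the counts of each library. A further 648 miRNAs had counts but stayed below this filter, and 925 had no count in the 8 libraries.

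The Ago413 allele is a single deletion on chromosome 4 that removes all of Ago1 and part of Ago3 and of Ago4, made on the 129 strain, recombined by a Sox2-cre deleter and backcrossed to C57BL/6J. It is constitutive and not restricted to the germ line. Ago413+/- mice keep 1 intact copy of the locus, Ago413+/+ mice 2 and Ago413-/- mice 0, while Ago2 lies outside the deletion in all groups. Males were 10 to 15 weeks old, testes of 2 to 5 mice were pooled for each cell suspension, and round spermatids were enriched on a gravity gradient to a purity that the labels put above 70% for both cell types. The study's methods state a higher purity for round spermatids than for spermatocytes. A library therefore stands for a pool of mice and can hold other testis cells as well, and fewer cells of a type and less RNA per cell cannot be told apart in it. mRNAs of the deleted genes are not counted in small RNA libraries, so the labels Ago413+/- and Ago413+/+ were not checked against the loss of 1 copy here.

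Argonaute proteins bind mature miRNAs, protect them from decay and use their seed, bases 2 to 8, to find target mRNAs. Ago2 is the member that can cut its targets, and Ago3 and Ago4 are found in meiotic male germ cells, where they reach the nucleus. Round spermatids are the haploid cells that follow meiosis. Their miRNAs include the miR-34 and miR-449 family and a large group of rapidly evolving X-linked miRNAs.

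The question that this comparison addresses is whether the loss of 1 copy of the 3 genes goes with a change in the miRNAs of round spermatids. The mature sequences of the miRNAs on which the comparison turns are given first, from RefSeq on GRCm38.p6, with the seed in capitals. The first set holds miRNAs with higher levels in Ago413+/-, those of the lowest p and those that share a seed with them.
miR-449a-5p: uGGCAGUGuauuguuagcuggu
miR-471-5p: uACGUAGUauagugcuuuucac
miR-101b-3p: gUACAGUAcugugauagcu
miR-146a-5p: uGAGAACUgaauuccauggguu
miR-19a-3p: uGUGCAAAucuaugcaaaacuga
miR-19b-3p: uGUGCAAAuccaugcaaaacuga
miR-20a-5p: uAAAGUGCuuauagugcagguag
miR-106b-5p: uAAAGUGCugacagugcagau
miR-15a-5p: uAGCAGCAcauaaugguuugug
miR-16-5p: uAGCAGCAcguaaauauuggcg
miR-19a-3p and miR-19b-3p share a seed and differ at 1 base over the whole mature sequence. miR-20a-5p shares its seed with miR-106b-5p, and miR-15a-5p with miR-16-5p. The second set holds miRNAs with lower levels in Ago413+/-, those with the largest differences and those of the X-linked and let-7 groups.
miR-760-3p: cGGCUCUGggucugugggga
miR-501-3p: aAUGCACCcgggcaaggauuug
miR-298-5p: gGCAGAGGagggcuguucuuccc
miR-470-5p: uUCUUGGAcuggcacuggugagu
miR-871-3p: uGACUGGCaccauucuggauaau
let-7c-5p: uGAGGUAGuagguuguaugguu
let-7d-5p: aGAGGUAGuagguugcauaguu
let-7e-5p: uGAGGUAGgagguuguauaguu
The 3 let-7 miRNAs share a seed, and let-7c-5p differs from let-7d-5p at 3 bases and from let-7e-5p at 2. Reads of near-identical miRNAs such as these may have been split between the members by the counting.

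Library totals were 343564 to 1072637 counts in Ago413+/+ (median 641717) and 384477 to 644092 in Ago413+/- (median 575519.5). Levels below are CPM, counts per 1e6 counts of a library, scaled by the TMM method. Summed CPM of marker lists are on library totals without that scaling, so a sum can fall below the scaled level of a member. A count of 0 allows up to 3 counts, or 2.80 CPM in the deepest of the 8 libraries and 8.73 CPM in the shallowest, for counting error alone. The first principal component held 41.7% of the variance and set Ago413+/+ replicates 1 and 2 (scores of 9.65 and 9.57) apart from Ago413+/- replicate 1 (-10.9), with the other 5 libraries between -2.83 and 0.128. Germ cell markers from the pachytene stage on were abundant in all 8 libraries, with miR-34c-5p at 55344 CPM or more and miR-881-3p at 72896 CPM or more. Among markers of other cells that the fraction can hold, the summed CPM of 8 blood miRNAs was 331 to 643 in Ago413+/+ and 606 to 1760.3 in Ago413+/-.

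No miRNA was called changed between the genotypes. Of the 405 tested, 0 (0%) had both an adjusted p under 0.05 and a log2 fold change of 1 or more in either direction in edgeR's quasi-likelihood test, and 0 passed the adjusted p at any fold change; the lowest adjusted p was 0.200. At an unadjusted p under 0.05 stood 57 miRNAs, 29 higher in Ago413+/- (7.16% of those tested) and 28 lower (6.91%). The 4 Ago413+/- libraries lay wholly above the 4 Ago413+/+ libraries for 12 miRNAs (2.96%) and wholly below for 13 (3.21%). Without TMM scaling, on library totals alone, the unadjusted counts were 35 higher and 16 lower. With 1 library left out, the higher ones ran from 19 (without Ago413+/+ replicate 2) to 37 and the lower ones from 8 (without Ago413+/- replicate 1) to 39, both of the highest counts without Ago413+/+ replicate 4. Of the 39 miRNAs named here that had an unadjusted p under 0.05, 16 kept it whichever library was left out and 23 did not.

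The outcome depended on the tool and on the filter. DESeq2, the tool that the study used on these counts summed by family, called 7 single miRNAs (1.73% of those tested), all higher in Ago413+/-, with adjusted p of 0.00416 to 0.00997. They were miR-19b-3p, miR-471-5p, miR-449a-5p, miR-146a-5p, miR-20a-5p, miR-101b-3p and miR-19a-3p, which are also the 7 with the lowest p in edgeR's test. DESeq2 adjusted over only part of the 405, with no adjusted p for miR-142a-3p or miR-760-3p, for example, while edgeR adjusted over all. The adjusted p of both tools are thus not over the same set. The unadjusted p differed as well, at 0.000113 in DESeq2 and 0.00108 in edgeR for miR-449a-5p. With no filter on low counts edgeR called 13 of 1053 miRNAs, 11 of them higher, and all 13 were among the 405 tested above. Over all 12 round spermatid libraries it called 0, with a lowest adjusted p of 0.0617. The single miRNAs below are therefore given by their levels and p-values, without calling them changed.

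**Figure D1:**
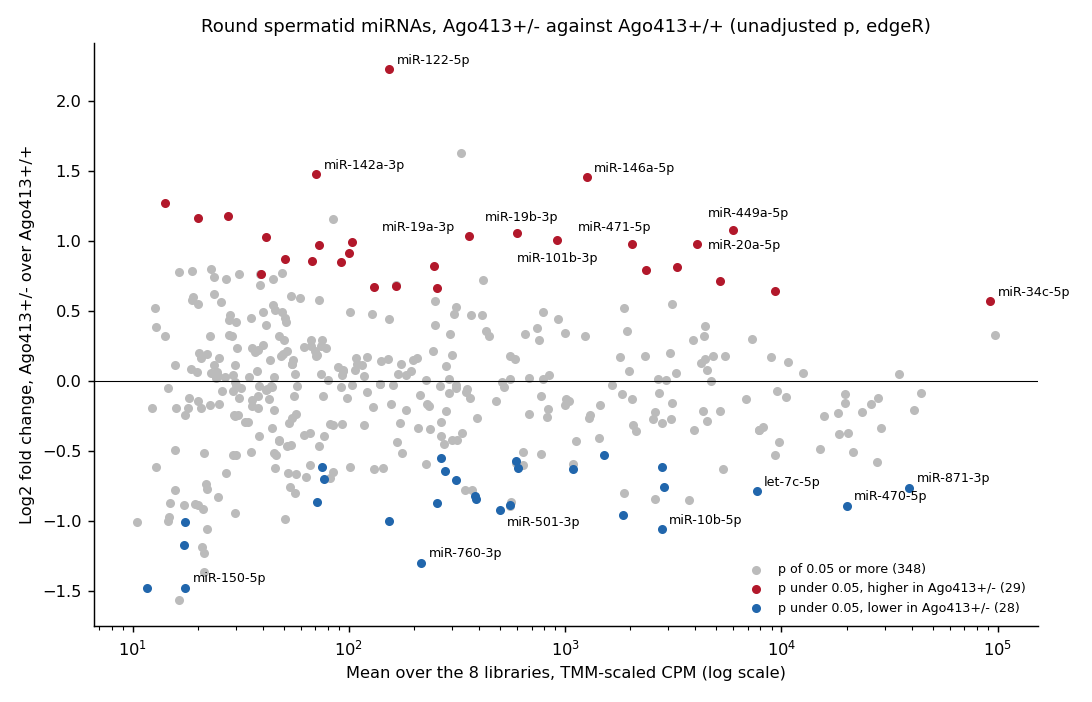
Log2 fold change of each of the 405 miRNAs between Ago413+/- and Ago413+/+ round spermatids (vertical) against its mean level over the 8 libraries in TMM-scaled CPM (horizontal, log scale). Red and blue points are the 29 higher and 28 lower miRNAs at an unadjusted p under 0.05 in edgeR's test, none of which passed the adjusted p, and the quartiles of the fold change lie at -0.39 and 0.25.

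The lowest p belonged to a member of the miR-34 and miR-449 family, which is high in meiotic and post-meiotic male germ cells. miR-449a-5p lies in an intron of Cdc20b (Mir449a, chr13:113037534-113037624, plus strand, GRCm38.p6). Its levels were 3655, 3459, 3905 and 4242 CPM in Ago413+/+ and 10313, 10608, 6176 and 5232 CPM in Ago413+/-. All Ago413+/- libraries were above all Ago413+/+ libraries, and replicates 1 and 2 of Ago413+/- were the highest. The log2 fold change was 1.08 ± 0.26 (SE), with an adjusted p of 0.2 in edgeR and 0.00516 in DESeq2, and it lay between 0.92 and 1.23 when each library was left out in turn. miR-34c-5p, the family's most abundant member, stood at 72581, 55344, 72254 and 97046 CPM in Ago413+/+ and 116349, 160221, 75791 and 88804 CPM in Ago413+/-. Its groups overlapped, with a log2 fold change of 0.57 ± 0.25 (SE) (unadjusted p = 0.0382). That p stayed under 0.05 in 3 of 8 fits with 1 library left out, and the log2 fold change was 0.33 without Ago413+/- replicate 2. The family's other 6 tested members had log2 fold changes of -0.37 to 0.45 and none reached an unadjusted p under 0.05. The family's median was 0.30, and 0.14 without Ago413+/- replicate 2.

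Members of the miR-17-92 cluster, a polycistron in the exon of Mir17hg on chromosome 14 known from proliferating cells, were next. miR-19b-3p stood at 358, 458, 379 and 364 CPM in Ago413+/+ and 937, 1066, 649 and 595 CPM in Ago413+/-. miR-20a-5p stood at 2110.4, 2426, 2522 and 3923 CPM in Ago413+/+ and 5778, 6771, 4932 and 4234 CPM in Ago413+/-, and miR-19a-3p at 142, 259.6, 295 and 242 CPM in Ago413+/+ and 609, 572, 381 and 362 CPM in Ago413+/-. In all 3 the genotypes did not overlap, and the highest values were those of Ago413+/- replicates 1 and 2, with log2 fold changes of 1.06 ± 0.26 (SE), 0.98 ± 0.25 (SE) and 1.03 ± 0.30 (SE) and adjusted p of 0.200, 0.200 and 0.223 in edgeR. miR-18a-5p, of the same transcript (Mir18, chr14:115043851-115043946, plus strand), did not overlap either, at 127 ± 27 CPM in Ago413+/+ and 204 ± 59.4 CPM in Ago413+/- (SD, n = 4 each) and a log2 fold change of 0.68. The most abundant member, miR-92a-3p, was at 29259.7 ± 6803 CPM in Ago413+/+ and 26879 ± 7046 CPM in Ago413+/- (SD, n = 4 each), that is a log2 difference of -0.12, and miR-17-5p, which shares its seed with miR-20a-5p and differs from it at 2 bases, had 0.32. The miRNAs counted for this transcript thus covered a range from -0.34 (miR-18a-3p) to 1.06 (miR-19b-3p) in log2 fold change. miR-19b-3p and miR-92a-3p have a copy on chromosome X as well, which the counts do not separate. Of the 15 tested miRNAs of this cluster and its paralogs, 6 were higher and 0 lower at an unadjusted p under 0.05, beside 7.16% and 6.91% of all miRNAs, with a median of 0.32 against -0.048 over all. The count of 6 became 3 without Ago413+/+ replicate 2, Ago413+/+ replicate 3 or Ago413+/- replicate 2 and 4 without Ago413+/- replicate 4, and the median was 0.19 without Ago413+/- replicate 2. miR-106b-5p, of a paralogous cluster, was one of the 6, standing at 106, 82.9, 83.4 and 129 CPM in Ago413+/+ and 157, 180.2, 124 and 181 CPM in Ago413+/-. Its p was above 0.05 in 4 of the 8 fits with 1 library left out, and that of miR-18a-5p in 3.

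Beside these, 2 miRNAs with low p came from other loci. miR-471-5p is of the testis X cluster between Slitrk2 and Fmr1 (Mir471, chrX:66792595-66792661, minus strand). It stood at 1162, 1336, 1303 and 1671 CPM in Ago413+/+ and 3158, 3266, 1959.9 and 2435 CPM in Ago413+/-. The groups did not overlap, and the log2 fold change was 0.98 ± 0.25 (SE) (adjusted p = 0.2 in edgeR, 0.00416 in DESeq2). miR-101b-3p, in an intron of Rcl1 (Mir101b, chr19:29135279-29135375, plus strand), stood at 505, 659, 481 and 787 CPM in Ago413+/+ and 1391, 1602, 876 and 1022 CPM in Ago413+/-. It did not overlap either, with 1.01 ± 0.28 (SE) (adjusted p = 0.204 in edgeR, 0.00780 in DESeq2).

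miR-146a-5p, known as an NF-kB-induced miRNA and from spermatogonia, had one of the largest differences and a wide spread (Mir146, chr11:43374397-43374461, minus strand). Its levels were 368, 845, 1039.6 and 440.3 CPM in Ago413+/+ and 2979, 1756, 1633 and 1005 CPM in Ago413+/-. The lowest Ago413+/- library lay just below the highest Ago413+/+ library, and Ago413+/- replicate 1 was far above the rest. The log2 fold change was 1.46 ± 0.39 (SE) (adjusted p = 0.204 in edgeR, 0.00773 in DESeq2), and 1.17 to 1.79 with 1 library left out. Its near-copy miR-146b-5p, of the same seed and 2 bases different, was at 831 ± 98.3 CPM in Ago413+/+ and 855 ± 65.7 CPM in Ago413+/- (SD, n = 4 each), that is a log2 difference of 0.04.

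Other miRNAs at higher levels included miR-21a-5p, a miRNA also known from spermatogonial stem cells, at 5226, 7196, 8003 and 8784 CPM in Ago413+/+ and 15860.1, 10611, 9805 and 9302 CPM in Ago413+/-. All Ago413+/- libraries were above the Ago413+/+ libraries by a narrow margin, with a log2 fold change of 0.64 ± 0.24 (SE) (unadjusted p = 0.0198). The p was above 0.05 without replicate 1 of either genotype. miR-340-5p, from an intron of Rnf130 (Mir340, chr11:50069702-50069799, plus strand), stood at 1789, 1559, 1444 and 2105 CPM in Ago413+/+ and 4112, 3641, 2112 and 2113 CPM in Ago413+/-, and the less abundant miR-135a-5p at 36.6, 43.9, 61 and 50.7 CPM in Ago413+/+ and 116, 73.7, 77.3 and 78.3 CPM in Ago413+/-. Neither overlapped, with 0.80 ± 0.28 (SE) and 0.86 ± 0.29 (SE) and an adjusted p of 0.291 and 0.291 in edgeR. In the miR-15 and miR-16 family, whose targets include cell cycle genes, miR-15a-5p (log2 fold change 1.00), miR-16-5p (0.72) and miR-16-1-3p (1.03) were higher at an unadjusted p under 0.05, 3 of 11 tested, and 8 members did not pass. Of all miRNAs tested 7.16% were higher at that p. miR-16-1-3p did not pass without Ago413+/- replicate 2, where its log2 fold change was 0.67, and the family's median went from 0.26 to 0.49 without Ago413+/+ replicate 2. miR-15a-5p stood at 54.9, 57.9, 51.3 and 109 CPM in Ago413+/+ and 177, 170.3, 97.9 and 107 CPM in Ago413+/-, with 1 high library, replicate 4, among the Ago413+/+ libraries. Against Ago413+/+ replicates 3 and 4 alone none of the 11 passed. miR-16-5p stood at 2572, 4158, 3953 and 5062 CPM in Ago413+/+ and 8870.0, 6126, 6009 and 4855 CPM in Ago413+/-, so that its groups overlapped by the span between Ago413+/+ replicate 4 and Ago413+/- replicate 4.

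**Figure D2:**
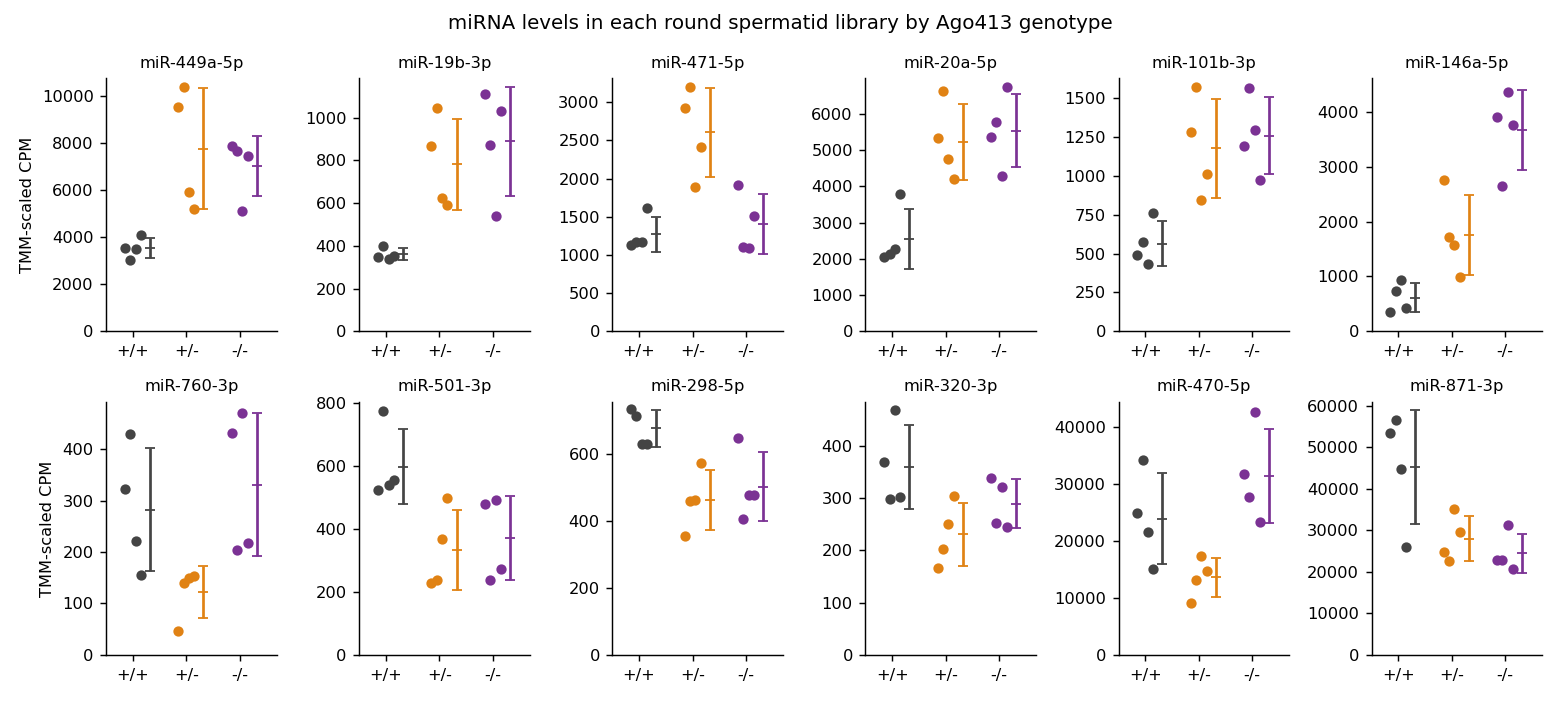
TMM-scaled CPM (vertical, from 0) of 12 miRNAs in each round spermatid library of Ago413+/+ (grey), Ago413+/- (orange) and Ago413-/- (purple), scaled over all 12 libraries; points are libraries in replicate order and bars the mean ± SD of 4. The upper row holds miRNAs higher in Ago413+/- and the lower row miRNAs lower in it, and the 4 orange points lie wholly above or below the grey ones except in miR-320-3p, miR-470-5p and miR-871-3p, while on the scaling of the 8 libraries alone miR-146a-5p overlapped and miR-320-3p did not.

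Among the lower miRNAs, miR-760-3p had the largest difference of those without overlap and with a mean of at least 50 CPM. It lies in an exon of the noncoding gene Gm17494 (Mir760, chr3:122293585-122293703, minus strand) and stood at 334, 489, 247 and 160.5 CPM in Ago413+/+ and 49.8, 143, 155 and 155 CPM in Ago413+/-. Ago413+/- replicate 1 was by far the lowest and Ago413+/+ replicate 4 came close to the other Ago413+/- libraries. The log2 fold change was -1.30 ± 0.40 (SE) (adjusted p = 0.281 in edgeR). Against Ago413+/+ replicates 3 and 4 alone it was -0.65, with an unadjusted p of 0.169.

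miR-501-3p, 1 of 5 tested miRNAs of a Clcn5 intron on chromosome X (Mir501, chrX:7241243-7241351, minus strand), stood at 541, 885, 603 and 575 CPM in Ago413+/+ and 247, 242, 384 and 504 CPM in Ago413+/-. The groups did not overlap, with a log2 fold change of -0.92 ± 0.30 (SE) and an adjusted p of 0.291 in edgeR. The cluster's most abundant member, miR-532-5p, had -0.14, and no other member passed an unadjusted p of 0.05. miR-298-5p, of a hairpin close to the imprinted Gnas locus, stood at 763, 816, 706 and 653 CPM in Ago413+/+ and 384, 470.1, 482 and 579.6 CPM in Ago413+/-. The groups did not overlap, and the lowest value was again that of Ago413+/- replicate 1, with -0.62 ± 0.23 (SE) (adjusted p = 0.291). Its unadjusted p was above 0.05 without that library or Ago413+/+ replicate 2. miR-320-3p, which is made without Drosha, stood at 383, 339, 523 and 312 CPM in Ago413+/+ and 179, 206, 260.1 and 306 CPM in Ago413+/-. It did not overlap by a margin of a few CPM, with -0.70 ± 0.27 (SE) (adjusted p = 0.291), and an unadjusted p above 0.05 without Ago413+/+ replicate 3 or Ago413+/- replicate 1 or 2. Other differences without overlap included those of miR-1843b-5p, miR-744-5p, miR-361-3p and miR-28a-3p, with log2 fold changes of -0.64, -0.57, -0.55 and -0.61 and adjusted p of 0.312 to 0.345. Their unadjusted p stayed under 0.05 in 3 of 8 fits with 1 library left out for miR-1843b-5p and in 2 of 8 for the other 3.

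The testis X cluster, whose members make up much of the miRNA of these cells, had 35 tested miRNAs, of which 1 was higher and 2 lower at an unadjusted p under 0.05, both below the 7.16% and 6.91% of all miRNAs, with a median log2 fold change of -0.07. The higher ones became 3 without Ago413+/+ replicate 2 or 4 or Ago413+/- replicate 3. The median was 0.05 without Ago413+/+ replicate 3 and 0.07 without Ago413+/- replicate 1. The lower ones were abundant. miR-470-5p (Mir470, chrX:66813951-66814025, minus strand) stood at 25799, 39101, 24039.8 and 15611 CPM in Ago413+/+ and 9887, 13522, 18095 and 14929 CPM in Ago413+/-. Only Ago413+/+ replicate 4 fell within the Ago413+/- range, and the log2 fold change was -0.89 ± 0.28 (SE) (adjusted p = 0.281). Its neighbour miR-871-3p (Mir871, chrX:66810428-66810504, minus strand), stood at 55305, 64477, 49854 and 26912 CPM in Ago413+/+ and 26713, 23114, 36371 and 29916 CPM in Ago413+/-. Here too Ago413+/+ replicate 4 lay with the Ago413+/- libraries, and the log2 fold change was -0.76 ± 0.26 (SE) (adjusted p = 0.291). Against Ago413+/+ replicates 3 and 4 alone these were -0.46 and -0.38. Within 1 cluster the arms and hairpins thus stood from -0.89 (miR-470-5p) to 0.98 (miR-471-5p). The X-linked share of all counts was 31.8 ± 1.37% in Ago413+/+ and 30.8 ± 1.68% in Ago413+/- (SD, n = 4 each; p = 0.429, exact two-sided permutation test). Over the 60 X-linked miRNAs tested, 2 were higher and 5 lower at an unadjusted p under 0.05, with a median of -0.15. These ran from 1 to 4 higher and from 3 (without Ago413+/- replicate 1) to 8 lower (without Ago413+/+ replicate 4) with 1 library left out.

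All 9 guide strands on the list of the let-7 family, known for restraining proliferation and promoting differentiation, had log2 fold changes below 0, from -0.84 to -0.08 with a median of -0.50. Of all 405 miRNAs tested, 220 were below 0. The list holds miR-98-5p and leaves out let-7j, which was tested as well. let-7g-5p, at -0.08, was above 0 without Ago413+/+ replicate 3 or 4, and the median was -0.18 without replicate 3. Of the 9, 3 were lower at an unadjusted p under 0.05, beside 6.91% of all miRNAs. The count became 1 without Ago413+/+ replicate 2 and 5 without Ago413+/- replicate 3. let-7c-5p did not pass without Ago413+/+ replicate 2, let-7d-5p without Ago413+/+ replicate 3, where it was at -0.49, and let-7e-5p without Ago413+/+ replicate 2 or Ago413+/- replicate 1. let-7c-5p stood at 9850.0, 13463, 8981 and 6633 CPM in Ago413+/+ and 3569.8, 5957, 7459 and 5617 CPM in Ago413+/-. A single Ago413+/- library, replicate 3, reached into the Ago413+/+ range, and the log2 fold change was -0.78 ± 0.27 (SE) (adjusted p = 0.291). let-7d-5p stood at 2627, 3852, 5099 and 2874 CPM in Ago413+/+ and 1878, 1659, 2877 and 2135 CPM in Ago413+/-. It had -0.76 ± 0.27 (SE) and let-7e-5p -0.82 ± 0.32 (SE), with adjusted p of 0.291 and 0.291. let-7g-5p, the most abundant member, was at 45409 ± 12149 CPM in Ago413+/+ and 42833 ± 7523 CPM in Ago413+/- (SD, n = 4 each). As the members share most of their bases, their reads are not independent of each other.

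The miR-10, miR-99, miR-100 and miR-125 families, hosted beside Hox genes or let-7 miRNAs, had all 11 tested members below 0, with a median of -0.63. Below 0 were 220 of all 405 miRNAs tested, and members of a family are not independent of each other. Only miR-10b-5p reached an unadjusted p under 0.05, at 5538, 5533, 1360.5 and 2695 CPM in Ago413+/+ and 1339, 940.2, 1576 and 3415 CPM in Ago413+/-. It did not pass without Ago413+/+ replicate 1 or 2 or Ago413+/- replicate 1, 2 or 3, while 5 members passed without Ago413+/+ replicate 4 and the median was -0.33 without Ago413+/+ replicate 2. The high values of miR-10b-5p were Ago413+/+ replicates 1 and 2, and against replicates 3 and 4 alone its log2 fold change was -0.15 in place of -1.06. On the same 2 libraries the median of the 10 family members tested was -0.01. miR-99a-5p, the most abundant member, had -0.58 ± 0.28 (SE), 0.03 against those 2 libraries and -0.36 without Ago413+/+ replicate 2. The Drosha-independent miRNAs had all 6 tested members below 0 (median -0.86, 2 lower at an unadjusted p under 0.05 beside 6.91% of all miRNAs, and 0 without Ago413+/- replicate 1 or 2), among them miR-1981-5p with -0.96 ± 0.40 (SE). That miRNA was at 3588, 3441, 1299.5 and 1474 CPM in Ago413+/+ and 572, 1227, 1494 and 1756 CPM in Ago413+/-, again high in Ago413+/+ replicates 1 and 2, and its log2 fold change against replicates 3 and 4 was -0.11. Its unadjusted p stayed under 0.05 in 4 of 8 fits with 1 library left out, and the list's median was -0.50 without Ago413+/+ replicate 2.

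Of the 10 tested miRNAs of the imprinted Dlk1-Dio3 cluster on chromosome 12, expressed from the maternal chromosome, 3 were lower and 0 higher at an unadjusted p under 0.05, with a median of -0.54. Over all miRNAs tested 6.91% were lower and 7.16% higher, with a median of -0.048. miR-409-3p stood at 364, 239.6, 456 and 264 CPM in Ago413+/+ and 131, 96.6, 221 and 272 CPM in Ago413+/-, with -0.87 ± 0.35 (SE). miR-409-5p, from the other arm of the same hairpin, had -0.70 ± 0.31 (SE), and miR-369-5p, a low-level miRNA at 23.9 ± 8.27 CPM in Ago413+/+ and 11.1 ± 2.67 CPM in Ago413+/- (SD, n = 4 each), had a log2 fold change of -1.0 ± 0.43 (SE) with no overlap. The most abundant member, miR-541-5p, had -0.89 ± 0.42 (SE) (unadjusted p = 0.052), and -0.27 without Ago413+/+ replicate 3. The 3 lower members became 0 of 10 without Ago413+/+ replicate 3 or without Ago413+/- replicate 1 or 2, with medians of -0.40 to -0.51, and 1 of 10 without Ago413+/+ replicate 1 or Ago413+/- replicate 3.

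The remaining families held few members at an unadjusted p under 0.05, where 7.16% of all miRNAs tested were higher and 6.91% lower. There was 1 of 34 in the Sfmbt2 intron cluster (miR-466b-5p, 1.17) and 1 of 3 in the miR-183, miR-96 and miR-182 cluster (miR-96-5p, 0.85). Neither passed without Ago413+/+ replicate 2 or Ago413+/- replicate 1 or 2. There was none, with all 8 libraries, among the 11 of the miR-30 family, the 6 of miR-181, the 5 of miR-200 and miR-141, the 5 of miR-148 and miR-152, the 2 of miR-26, the 6 of the miR-23, miR-27 and miR-24 clusters and the 3 of miR-29, whose medians lay between -0.20 and 0.14. Their most abundant members were at log2 fold changes of -0.22 (miR-30c-5p), -0.59 (miR-181a-5p), -0.60 (miR-200b-3p), 0.05 (miR-148a-3p), -0.38 (miR-26a-5p), 0.30 (miR-27b-3p) and 0.08 (miR-29a-3p). miR-200b-3p was at -0.36 without Ago413+/- replicate 1, and miR-181a-5p ranged from -0.29 without Ago413+/+ replicate 1 to -0.90 without Ago413+/- replicate 2. By mean level the top 5 miRNAs of Ago413+/+ round spermatids were miR-191-5p, let-7g-5p and miR-34c-5p with miR-871-3p and miR-881-3p of the X cluster. They held 29.1 ± 2.4% of the counts in Ago413+/+ and 33.5 ± 3.43% in Ago413+/- (SD, n = 4 each; p = 0.114, exact two-sided permutation test). miR-881-3p, of the testis X cluster, had 0.33 ± 0.18 (SE) and miR-191-5p -0.21 ± 0.20 (SE).

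**Figure D3:**
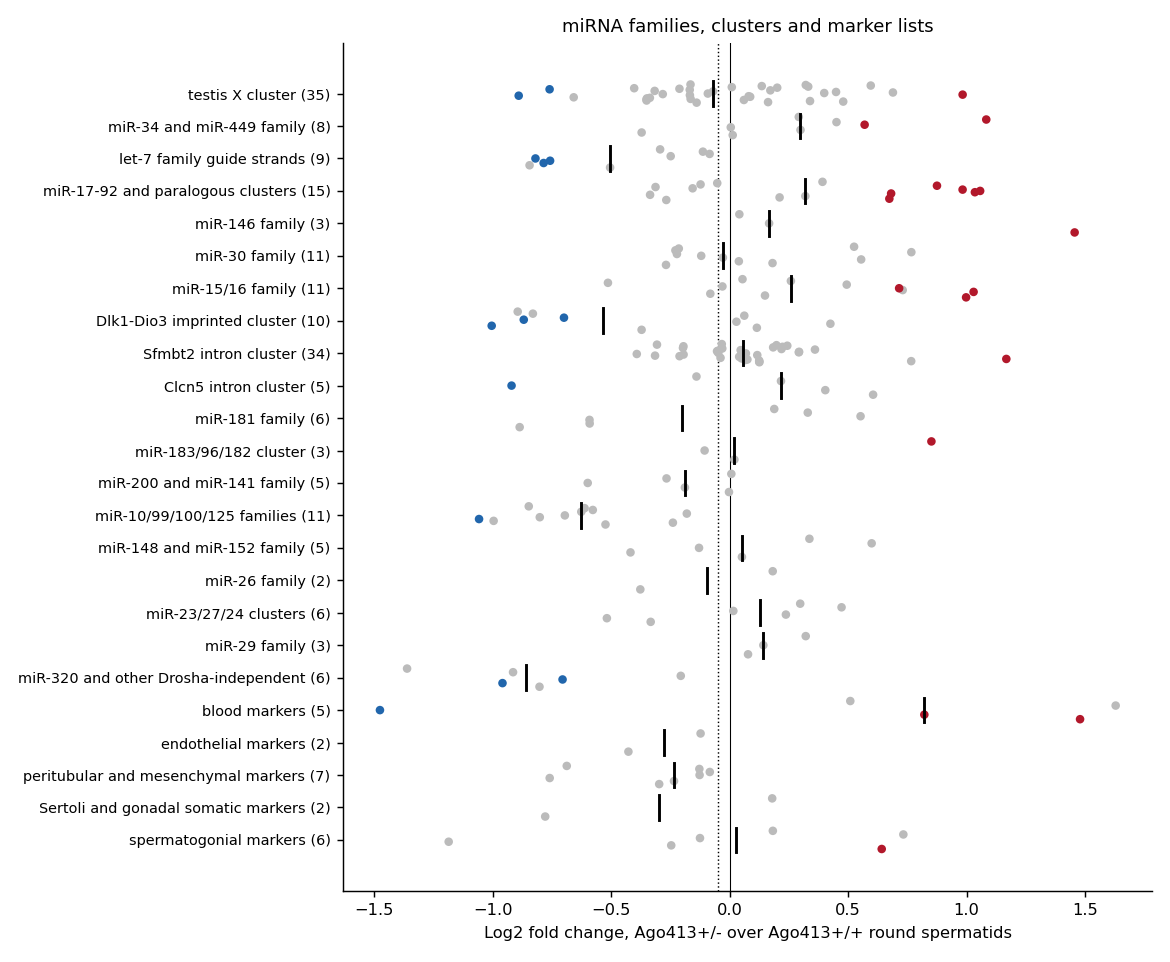
Log2 fold change between Ago413+/- and Ago413+/+ round spermatids (horizontal) of the tested members of 24 families, clusters and marker lists (vertical, the number tested in brackets). Points are miRNAs, red where higher and blue where lower at an unadjusted p under 0.05, black bars are list medians and the dotted line is the median of all miRNAs, -0.048. The let-7, miR-10 and miR-99, Drosha-independent, endothelial and peritubular lists lie wholly below 0, as do 220 of all 405 miRNAs tested.

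The miRNA genes beside the deletion were looked at in turn. Ago3, Ago1 and Ago4 lie at chr4:126326994-126533586 (GRCm38.p6), and 5 tested miRNAs have a hairpin on chromosome 4 within 10 Mb of them. miR-30e-5p and miR-30e-3p, from an intron of Nfyc (Mir30e, chr4:120772606-120772697, minus strand), had 0.53 ± 0.35 (SE) and -0.21 ± 0.25 (SE), and miR-30e-5p was at 0.09 without Ago413+/- replicate 2. miR-30c-1-3p, from the same intron, had -0.03 ± 0.38 (SE), miR-30c-5p -0.22 ± 0.19 (SE) and miR-700-3p 0.02 ± 0.56 (SE). None reached an unadjusted p under 0.05, and the wide standard errors of miR-30c-1-3p and miR-700-3p mean that a difference of moderate size was not detectable there.

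Some markers of other cell types had an unadjusted p under 0.05, in both directions. Of the 5 blood miRNAs tested, of 8 on the list, 2 were higher and 1 lower at an unadjusted p under 0.05, beside 7.16% and 6.91% of all miRNAs. The higher ones became 1 without Ago413+/+ replicate 1 or 2 or Ago413+/- replicate 1. miR-142a-3p, of leukocytes, stood at 44.8, 27, 35.3 and 43.4 CPM in Ago413+/+ and 94.1, 208, 36.1 and 76.9 CPM in Ago413+/-, with 1.48 ± 0.45 (SE) (adjusted p = 0.281), and 0.90 without Ago413+/- replicate 2. miR-142a-5p, of the same hairpin, had 0.82 ± 0.33 (SE), and miR-150-5p, of lymphocytes, had -1.48 ± 0.56 (SE) at levels of 16.3, 45.9, 9.63 and 30.2 CPM in Ago413+/+ and 12.9, 3.28, 7.73 and 14.2 CPM in Ago413+/-. With 1 library left out, miR-150-5p stayed above the filter in 5 of 8 fits and passed in 4. miR-451a, of red cells, stood at 155, 63.9, 417 and 30.2 CPM in Ago413+/+ and 1212, 138, 193 and 441 CPM in Ago413+/- (unadjusted p = 0.0539). The summed blood markers gave p = 0.0571 between the genotypes (exact two-sided permutation test), their part in the other differences was not tested, and miR-146a-5p is itself known from leukocytes.

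The largest fold change of all was that of miR-122-5p, known as the liver's main miRNA and named here because of its value, with 2.23 ± 0.97 (SE). It stood at 52.9, 7.99, 154 and 19.3 CPM in Ago413+/+ and 736, 45.9, 30.9 and 182.3 CPM in Ago413+/-. As in miR-451a, the highest value was Ago413+/- replicate 1 and the highest of Ago413+/+ was replicate 3, so that the groups overlapped. No marker list of another cell type passed after adjustment over the 16 library measures. The spermatogonial list came lowest in p, summing to 7283 ± 1334 CPM in Ago413+/+ and 11756 ± 2409 CPM in Ago413+/- (SD, n = 4 each; exact two-sided permutation p = 0.0286, the smallest possible, and 0.274 adjusted). Most of it was miR-21a-5p, while miR-221-3p and miR-222-3p had log2 fold changes of -0.25 and -1.19. Of the 6 spermatogonial members tested, 3 were above 0 and 3 below, with a median of 0.03 and a highest value of 0.73. Peritubular, endothelial and Sertoli lists had exact p of 0.429 to 0.743. All 7 peritubular markers were below 0 in log2 fold change (median -0.24, and 0.52 without Ago413+/+ replicate 1), beside 220 of all 405 miRNAs tested, and 0 of the 7 passed an unadjusted p of 0.05. Within that list miR-143-3p was at 8326, 1792, 991 and 1206 CPM in Ago413+/+ and 2234, 1284, 1319 and 5179 CPM in Ago413+/-, high in 1 library of each genotype.

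The GC content of the miRNAs moved with the difference. The 25 higher miRNAs with a sequence had a median GC content of 40.9% (27.3 to 50%), the 23 lower ones 52.2% (40.9 to 70%) and all 333 tested with a sequence 45.5%. A first base of U was found in 17 of the 25 (68%) and 10 of the 23 (43.5%), against 48% of all. Library by library, the slope of a miRNA's level on GC content against the mean of the 8 was 0.236, 0.159, -0.00593 and -0.0169 log2 units per 10% GC in Ago413+/+ and -0.221, -0.119, -0.0379 and 0.0064 in Ago413+/-. The slopes of Ago413+/+ replicates 1 and 2 and Ago413+/- replicates 1 and 2 stood apart, the other 4 were close to 0, and the comparison of the genotypes gave p = 0.0857 (exact two-sided permutation test).

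When a smooth trend on GC content was removed from each library, 44 of the 333 miRNAs had an unadjusted p under 0.05, 27 of them higher and 17 lower, against 46 (25 higher and 21 lower) of the same 333 without that step, and 0 were called in either fit. The 25 higher and 23 lower miRNAs with a sequence shared 29 with the 44, and 42 with the 46. miR-449a-5p then had a log2 fold change of 1.14, miR-146a-5p 1.34, miR-19b-3p 0.89 and miR-20a-5p 0.83. miR-340-5p went to 0.31, miR-135a-5p to 0.50 and miR-298-5p to -0.36, with unadjusted p of 0.292, 0.0771 and 0.143. The let-7 guides went to a median of -0.72, with 5 of 9 lower at an unadjusted p under 0.05, from -0.51 and 4 of 9 among the same 333 without the offset.

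**Figure D4:**
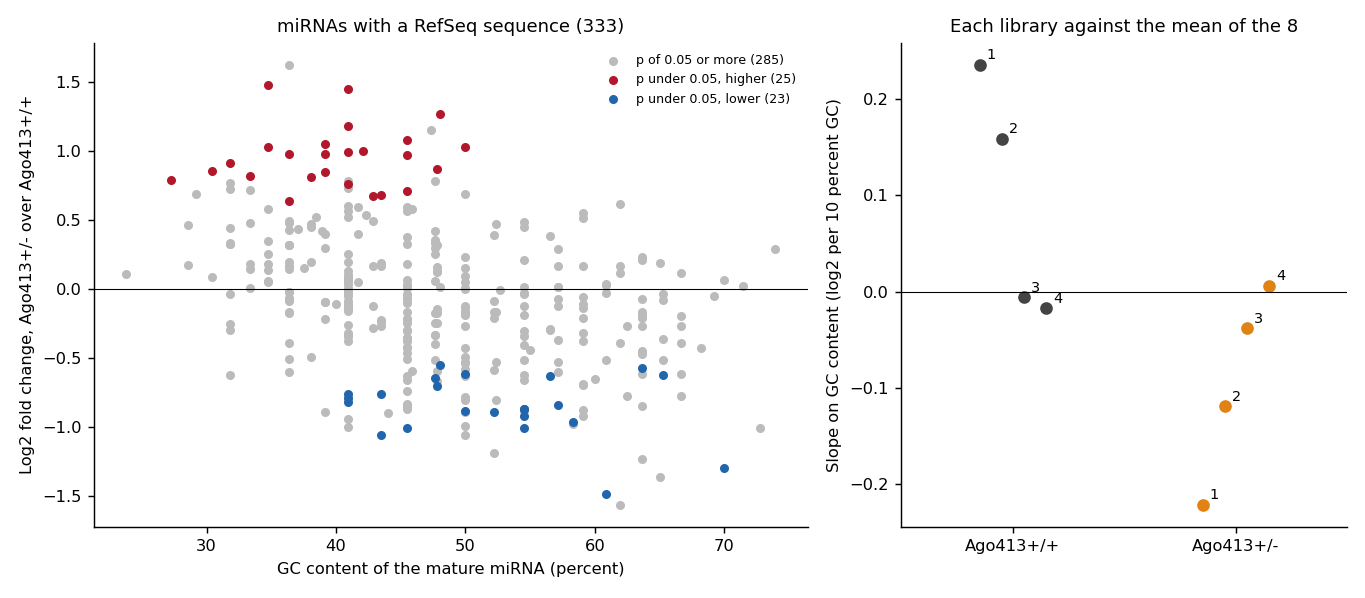
Left, log2 fold change between Ago413+/- and Ago413+/+ (vertical) against GC content of the mature miRNA in percent (horizontal) for the 333 miRNAs with a sequence, red and blue as higher and lower at an unadjusted p under 0.05. Right, the slope of each library on GC content in log2 units per 10% GC, numbered by replicate; replicates 1 and 2 lie at 0.236 and 0.159 in Ago413+/+ and at -0.221 and -0.119 in Ago413+/-, and the other 4 lie near 0.

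Library numbers in the column headers fall in a low range (under 65: 3 Ago413+/- and 2 Ago413+/+ libraries) and a high range (1 and 2 libraries), and the headers do not say what they mark. Within the low range the log2 ratio of mean levels was 1.34 for miR-449a-5p, 1.81 for miR-146a-5p, 1.36 for miR-20a-5p and -1.83 for miR-760-3p. Within the high range, where Ago413+/- has a single library and no test was run, it was 0.36, 0.44, 0.39 and -0.39. These 4 had the same direction in both ranges and a smaller size in the high one. Of the 39 named miRNAs with an unadjusted p under 0.05, 36 had the same direction in both ranges, and 36 were smaller in the high range. That p came from these same libraries, so agreement in direction can follow from the choice alone and is given as a description. The other direction was found for miR-466b-5p (1.47 in the low and -0.08 in the high range), miR-1981-5p (-1.68 in the low and 0.34 in the high range) and miR-10b-5p (-2.11 and 0.75). Over all 63 named miRNAs 44 had the same direction and 19 did not, among them miR-99a-5p (-1.04 and 0.13) and miR-143-3p (-1.65 and 2.24). With a term for the range in the fit, 49 miRNAs had an unadjusted p under 0.05 and 0 were called.

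Counts summed over miRNAs of the same number and arm gave 315 families, of which 0 were called, 22 (6.98%) were higher and 24 (7.62%) lower at an unadjusted p under 0.05. The lowest p were those of miR-449-5p (log2 fold change 1.04) and miR-19-3p (1.02), both without overlap, with an adjusted p of 0.226 in edgeR. miR-20-5p and miR-101-3p followed with 0.95 and 0.92. DESeq2 called 4 families. The median minor arm ratio, the log2 ratio of the less to the more abundant arm of a hairpin, was -5.43 ± 0.185 in Ago413+/+ and -5.47 ± 0.137 in Ago413+/- (SD, n = 4 each; p = 0.771, exact two-sided permutation test).

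The same contrast in pachytene/diplotene spermatocytes served to ask whether the difference is particular to round spermatids. In a fit of 16 libraries, whose scaling also gives the spermatocyte CPM below, 0 of 436 miRNAs passed the adjusted p for the interaction of genotype and cell type, and 15 (3.44%) had an unadjusted p under 0.05, with a lowest adjusted p of 0.993; DESeq2 found 0 and 16. miR-449a-5p had a log2 fold change of 0.79 ± 0.40 (SE) in spermatocytes, miR-19b-3p 0.72 ± 0.35, miR-471-5p 0.75 ± 0.32, miR-19a-3p 0.74 ± 0.33 and miR-20a-5p 0.48 ± 0.36. Their differences from round spermatids were 0.23 to 0.50, with standard errors of 0.45 to 0.56. The fit took the 16 libraries as independent, though same-numbered libraries of the cell types may come from the same suspension, which the labels do not say. Among the lower miRNAs let-7d-5p had 0.43 ± 0.36 in spermatocytes, an interaction of -1.19 ± 0.51 (SE, unadjusted p = 0.0308, adjusted p = 0.993). miR-470-5p and miR-871-3p had 0.12 ± 0.37 and 0.10 ± 0.31 there. In Ago413+/- spermatocytes let-7d-5p stood at 2244, 2601, 3828 and 8597 CPM, with replicate 4 the highest. That library was also the highest for miR-470-5p (40838 CPM, 10822 to 13509 in the other Ago413+/- libraries) and miR-871-3p (60993 CPM, 19384 to 30853). It was the lowest Ago413+/- library for miR-449a-5p (2461 CPM) and the other higher miRNAs given above. A fit without it was not run. miR-146a-5p had the other sign than in round spermatids, with -1.88 ± 0.82 and an interaction of 3.34 ± 1.14 (SE, unadjusted p = 0.00917, adjusted p = 0.993). In spermatocytes it stood at 186, 198, 4796 and 300.5 CPM in Ago413+/+ and 287, 269, 347 and 588 CPM in Ago413+/-, with replicate 3 of Ago413+/+ far above the other 7.

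**Figure D5:**
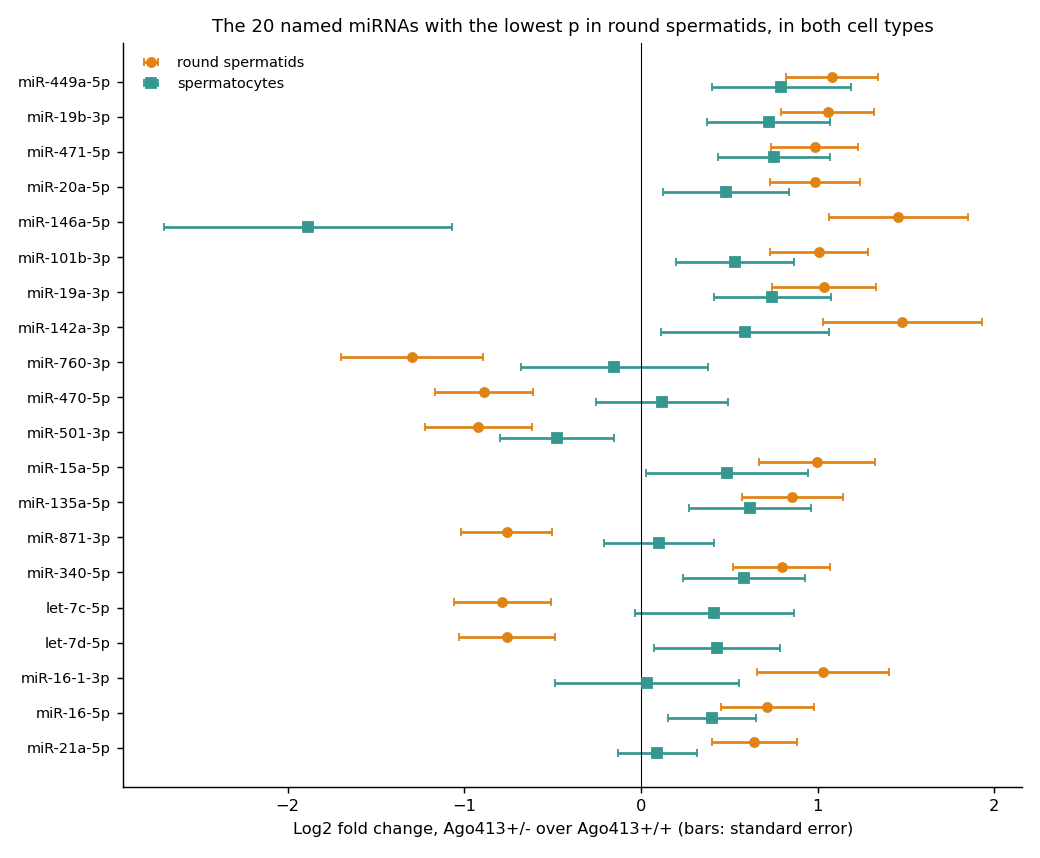
Log2 fold change between Ago413+/- and Ago413+/+ (horizontal, bars are standard errors) of the 20 named miRNAs with the lowest p in round spermatids, in round spermatids (orange circles) and in spermatocytes (green squares). The higher miRNAs lie above 0 in both cell types except miR-146a-5p, at -1.88 in spermatocytes, while let-7c-5p, let-7d-5p, miR-470-5p and miR-871-3p lie below 0 in round spermatids only. For each of these last, the highest spermatocyte library was Ago413+/- replicate 4.

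Ago413-/- round spermatids were set beside these miRNAs in a fit of the 12 round spermatid libraries, which shares the Ago413+/+ libraries with the comparison above and gives the Ago413-/- CPM below. At an adjusted p under 0.05, 41 (10.1%) of the 405 miRNAs were higher and 47 (11.6%) lower in Ago413-/- than in Ago413+/-. The miRNAs below were named for their difference between the Ago413+/- and the Ago413+/+ libraries, and both groups of libraries are used again here. From the choice alone can follow a difference from Ago413+/- in the opposite direction, and one from Ago413+/+ in the same direction. The values of these miRNAs are therefore given side by side as a description, with no test. miR-449a-5p stood at 7900.4, 7668, 5139 and 7459 CPM in Ago413-/-, where it was 0.99 above Ago413+/+ and -0.14 from Ago413+/- in log2 fold change. miR-19b-3p, miR-20a-5p and miR-101b-3p were 0.08 to 0.19 from Ago413+/- and 1.12 to 1.30 above Ago413+/+.

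miR-146a-5p stood at 3917, 2649.7, 4374 and 3773 CPM in Ago413-/-, that is a log2 difference of 1.06 over Ago413+/- and 2.59 over Ago413+/+, so that the mean of Ago413+/- lay between the other 2. miR-471-5p stood at 1909.8, 1104, 1085 and 1512 CPM, which is -0.89 from Ago413+/- and 0.14 from Ago413+/+. From Ago413+/- to Ago413-/-, miR-470-5p (1.20), let-7c-5p (1.22), let-7e-5p (1.24), miR-760-3p (1.44) and miR-10b-5p (1.38) had log2 differences above 0, and their log2 fold changes against Ago413+/+ were 0.23 to 0.51. miR-409-3p had its lowest mean in Ago413-/-, at 22.6, 36.9, 22.5 and 37.9 CPM, -2.57 from Ago413+/- and -3.37 from Ago413+/+.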

How the data were processed

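Small RNA was sequenced from 100 ng of total RNA per library, and per the study's methods reads were adaptor-trimmed (TrimGalore) and assigned to miRBase mature miRNAs by the miRDeep2 mapper and quantifier. The authors deposited the resulting raw counts of 1978 miRNAs, which are not normalized. Genotype, cell type and replicate were taken from the labels. Nothing says that pools of mice were kept separate beyond the replicate number, so the p-values measure the spread between these libraries. Replicates differed by more than sampling noise (chi-square over its degrees of freedom of 25.0 to 193.6).

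miRNAs that reached 10 counts in 3 or more of the 8 libraries were tested with edgeR 4.0.16 in R 4.3.3 (TMM, glmQLFit, glmQLFTest, Benjamini-Hochberg over all miRNAs tested). The interaction used 16 libraries and the comparison with Ago413-/- 12. The step was also run on simulated counts with known fold changes, and how many of them it called is not given here. DESeq2 1.42.0 was an alternative, and an adjusted p that it did not give was left missing. Library measures were compared with exact two-sided permutation tests (scipy 1.17.1), adjusted over 16 measures, where 4 against 4 libraries cannot go below p = 0.0286. Families by seed were planned. RefSeq gave a mature sequence for 333 of the 405 miRNAs (82.2%, 85.4% of the counts), so families by number and arm were used in their place. Minor arm ratios used hairpins whose arms together reached 50 counts in each library, with a pseudocount of 0.5. The GC trend was a loess with a span of 0.75. Hairpin positions are those of RefSeq on GRCm38.p6 and host genes those of GENCODE M21.

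The miRNAs named are the 5 with the highest mean in Ago413+/+, the 10 with the largest positive and the 10 with the largest negative log2 fold change (unadjusted p under 0.05, no overlap, mean of at least 50 CPM), the 10 lowest p, miR-146a-5p and miR-449a-5p, the most abundant member of each list and its members with an unadjusted p under 0.05 (at most 4 by p), and those within 10 Mb of the deleted genes. Members and lists were chosen with earlier results of these data known.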

Additional observations from a re-analysis of the deposited data

Results flagged for a closer look

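In 9 of 158 groups of 4 libraries examined, 1 library lay apart from the other 3 by more than the 95% limit for a gap over the range, where chance alone gives about 1 in 20, or 7.9. Ago413+/- replicate 1 was the library in 7 of these groups. Its levels were 49.8 CPM for miR-760-3p (142.9 to 155 in the others), 116 for miR-135a-5p (73.7 to 78.3), 153 for let-7e-5p (303 to 332), 5531 for miR-27b-3p, 1254 for miR-126a-3p and 52039 for miR-148a-3p. Its summed endothelial markers, on library totals without TMM scaling, were 1233 CPM (928 to 939 in the others). It also had the lowest slope on GC content of the 8 libraries. Ago413+/+ replicate 4 had 109 CPM of miR-15a-5p (51.3 to 57.9 in the others), and Ago413+/+ replicate 1 had 8326 CPM of miR-143-3p (991 to 1792 in the others).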

How the results depend on the processing

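The count of 0 called miRNAs held with DESeq2's size factors in edgeR, library totals, a stricter filter, all 12 round spermatid libraries, a term for library number and each library left out. It did not hold with DESeq2 (7) or with no filter on low counts (13), where 101 miRNAs had an unadjusted p under 0.05 in place of 57. With 1 library left out, that count ran from 29 (without Ago413+/- replicate 1) to 76 (without Ago413+/+ replicate 4), and it was 35 without Ago413+/- replicate 2 or without Ago413+/+ replicate 2. For families it ran from 24 (without Ago413+/- replicate 1) to 58, and DESeq2 called 4 families. On library totals 68.6% of the miRNAs at an unadjusted p under 0.05 were higher in Ago413+/-, with a GC offset 61.4%, and under TMM 50.9%. Replicate numbers are not known to pair the genotypes, since the labels do not say so. The deviations of same-numbered libraries correlated at -0.364, 0.232, 0.137 and -0.35, which are too few values to decide it. With a replicate block across genotypes 40 miRNAs, and 29 families in place of 46, had an unadjusted p under 0.05, and 0 were called. For the interaction the block joined same-numbered libraries of both cell types within a genotype, with 9 in place of 15 and 0 called. Deviations of such libraries correlated at 0.0359, 0.429, 0.0112 and 0.263 in Ago413+/-. In Ago413+/+ they correlated at 0.351, 0.411, -0.14 and 0.35.

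The GC offset and the restriction to Ago413+/+ replicates 3 and 4 were chosen after seeing the data. On those 2 replicates 33 miRNAs had an unadjusted p under 0.05, 17 of them among the 57.

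Of the log2 fold changes of the 63 named miRNAs, 48 values took the other sign, all in miRNAs with an unadjusted p of 0.05 or more. On Ago413+/+ replicates 3 and 4 these were 0.0289 (miR-99a-5p), 0.264 (miR-181a-5p), 0.0821 (miR-669c-5p), 1.21 (miR-143-3p), -0.0496 (miR-146b-5p) and 0.529 (miR-30c-1-3p). With the GC offset, and with the GC offset and a replicate block, they were -0.0134 and -0.0166 (miR-881-3p), 0.103 and 0.118 (miR-92a-3p), -0.223 and -0.114 (miR-202-5p), -0.0185 and -0.0164 (miR-29a-3p), -0.0532 and -0.0903 (miR-148a-3p), -0.0579 and -0.0529 (miR-146b-5p) and 0.255 and 0.277 (miR-30c-1-3p), and miR-191-5p had 0.0144 with both. With the block alone miR-143-3p had 0.0175 and miR-30c-1-3p 0.0378. let-7g-5p had 0.015 with a term for library number. miR-30c-1-3p also had 0.0329 over 12 libraries, 0.0466 on library totals, 0.0239 with no filter and 0.015 among miRNAs with a sequence. With 1 library left out the ranges were -0.334 to 0.00583 (miR-30e-3p), -0.596 to 0.0516 (miR-669c-5p), -0.313 to 0.0546 (miR-92a-3p), -0.964 to 0.933 (miR-143-3p), -0.0912 to 0.64 (miR-202-5p), -0.209 to 0.0162 (miR-183-5p), -0.228 to 0.0893 (let-7g-5p), -0.0846 to 0.22 (miR-29a-3p), -0.148 to 0.146 (miR-148a-3p), -0.00885 to 0.168 (miR-146b-5p), -0.257 to 0.252 (miR-30c-1-3p) and -0.464 to 0.649 (miR-700-3p). The causes were not tested. The depth of 343564 to 1072637 counts limits miRNAs below about the floor of 2.80 to 8.73 CPM.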
